A study of Mus musculus with 16 samples.

Results

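The 36 genes described here carry glucose into the cell, break it down to pyruvate and lactate, and admit pyruvate to the mitochondrion, with the muscle forms of glycogen synthase and glycogen phosphorylase beside them. They were taken by name from tables of 33641 gene symbols, and all 36 were found. Glucose enters through facilitative transporters, is trapped as a phosphate by hexokinase, and is committed to glycolysis at phosphofructokinase. Most steps are carried by several isozymes encoded by separate genes, of which striated muscle uses a characteristic set, while fat, connective tissue and blood cells use another. The heart normally gains most of its energy from fatty acids and can take up lactate, and fat cells use glucose largely to make glycerol phosphate and lipid.

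RNA was sequenced from left ventricle and from subcutaneous white adipose tissue (scWAT) of C57BL/6J mice aged 28 weeks. Mice labelled Adipo-HuR KO, meant to lack HuR (the product of Elavl1, which binds RNA) in adipocytes only, were set against mice labelled wild-type; neither the promoter that drives the recombinase nor the sex of the mice is given in the sources used here. There were 4 hearts labelled knockout (mice A25, A29, A30 and A31) and 4 wild-type hearts (A5, A7, A8 and A14), and 3 scWAT libraries labelled knockout (A24, A26 and A30) and 5 wild-type ones (A5, A7, A8, A12 and A14). Values below are listed in that order of mice, so the second heart value of the mice labelled knockout is always A29. The 16 libraries came from 11 mice, and libraries of 1 group came from different mice.

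Values are TPM, transcript abundances that are scaled for transcript length and to a fixed total in each library, so levels can be set side by side between genes, the depth is unknown, and a rise of some transcripts lowers all others. Elavl1 stood at 42.9, 42.03 and 36.2 TPM in scWAT labelled knockout, against 33.4, 34.5, 27.6, 19.5 and 18.97 TPM in wild-type scWAT. Its direction was opposite to the label, but it was not called (log2 fold change 0.61 ± 0.22 (SE), limma adjusted p = 0.256). Of all genes, 5.23% lay apart as higher in scWAT labelled knockout. TPM of whole tissue do not separate adipocytes from other cells. In heart Elavl1 stood at 10.3, 8.82, 15.9 and 8.45 TPM in libraries labelled knockout, against 6.66, 12.6, 12.04 and 10.4 TPM in wild-type libraries. Cardiomyocyte markers summed to at least 16626 TPM in every heart and to at most 116 TPM in any scWAT library, and mature adipocyte markers summed to at least 21874 TPM in every scWAT library and to at most 50.3 TPM in any heart. Mitochondrially encoded transcripts took 46.2, 55.7, 43.4 and 48.9% of the TPM of hearts labelled knockout and 60.6, 53.0, 51.9 and 53.2% of that of wild-type hearts. Over all genes tested in heart, the log2 fold change had a median of 0.26, or 0.39 without A29, so heart fold changes of single genes are given after subtracting that median, while tests and counts of calls use the values before subtraction. Heart A29, although labelled knockout, had values near those of wild-type hearts for many of the genes below, as it did for fibroblast markers (231 TPM summed, against 2099 to 3409 TPM in the other 3 hearts labelled knockout and 187 to 300.2 TPM in wild-type hearts). Counts of calls in heart are therefore given with A29 and without it, as are the fold changes of the genes called.

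Without A29, limma called 10 of the 35 tested genes higher in hearts labelled knockout than in wild-type hearts, namely Slc2a1, Pfkp, Tpi1, Gapdh, Pgk1, Pgam1, Eno1, Ldha, Slc16a3 and Pdk3. It called 11 lower, namely Slc2a4, Hk2, Pfkm, Pfkfb1, Pfkfb2, Eno3, Ldhb, Mpc2, Pdk2, Gys1 and Pygm. In phosphofructokinase, phosphoglycerate mutase, enolase and lactate dehydrogenase, the form most abundant in wild-type hearts took a smaller share of the step in the 3 hearts labelled knockout other than A29 than in any wild-type heart. With all 8 hearts, none of the 35 tested genes passed an adjusted p of 0.05 in limma in either direction, where 0.0501% of the 11981 genes tested passed as higher and 0.0% as lower. An unadjusted p under 0.05 was reached by 8 that were higher and 8 that were lower, where the shares of all genes were 20.9% and 3.66%. Without A29, the 10 higher genes stood against 34.8% of 12081 genes, and the 11 lower ones against 4.16% of them. The split depends on the scaling: without A29, median-of-ratios scaling, which sets each library by its typical gene, gave 5 higher (Pfkp, Slc16a3, Pdk3, Slc2a1 and Pgam1) and 16 lower, against 19.5% and 20.8% of all genes. TPM recomputed without the mitochondrially encoded genes gave 8 higher and 14 lower, against 28.7% and 8.9%. Pdha1, Pdhb and Pkm were lower by both of these scalings, and Pdk1 and Pdp1 were lower by median-of-ratios scaling. A29 was singled out after its values had been seen, and leaving out any other heart in turn gave 0 calls among the 35 in either direction. Aldoc, at 0.269 TPM or less in every heart, was under the minimum of a mean of 1 TPM and was not tested.

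**Figure D1:**
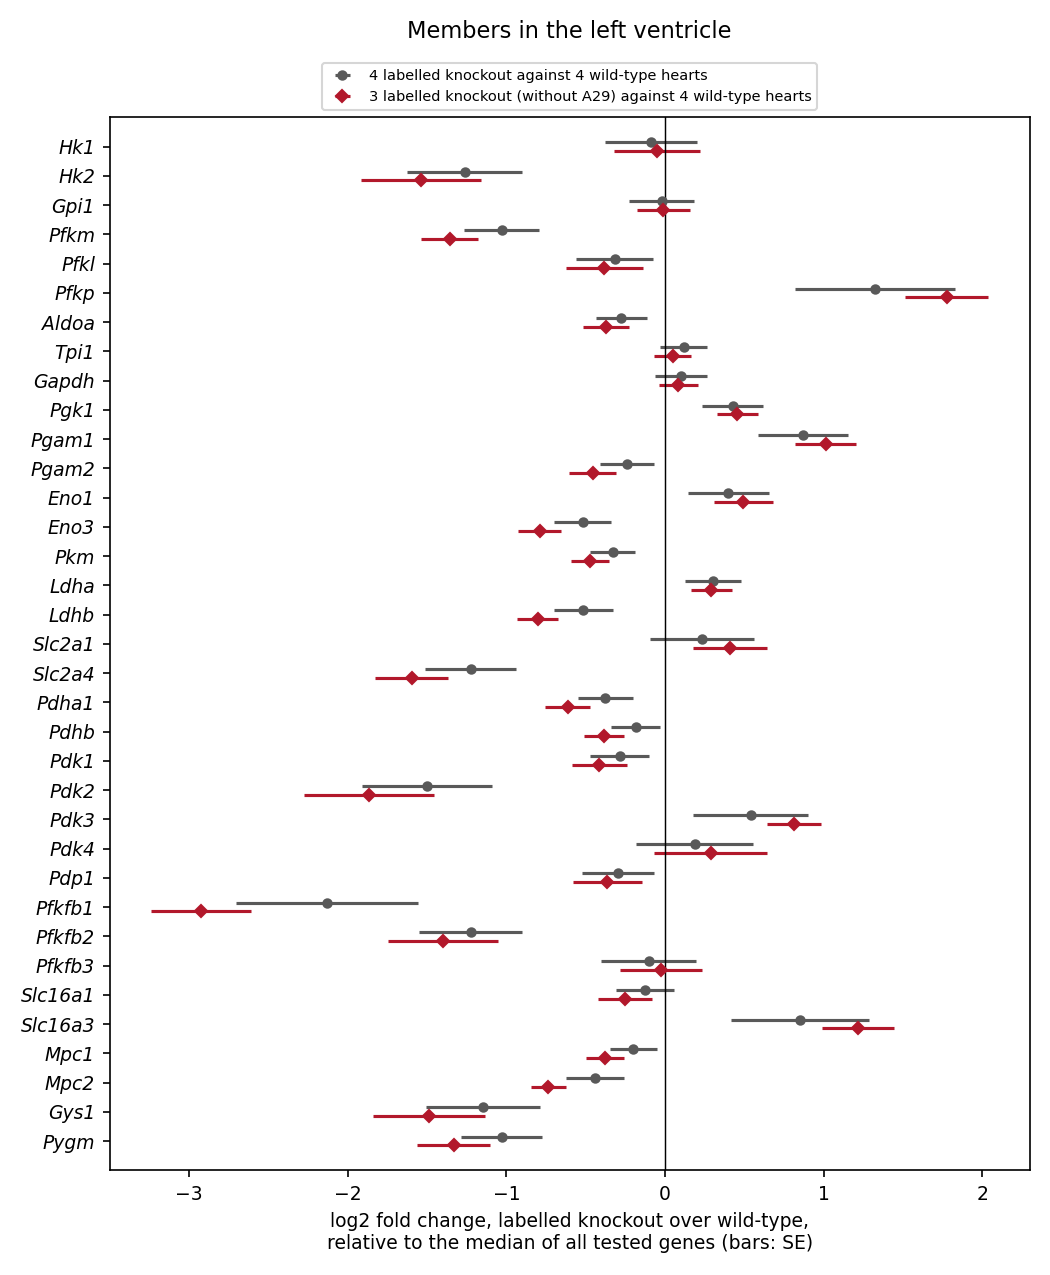
Log2 fold change (labelled knockout over wild-type) of the 35 tested genes in the left ventricle, relative to the median of all tested genes, with its standard error; circles use 4 hearts labelled knockout and diamonds 3, without A29, both against 4 wild-type hearts. Pfkp lies farthest to the right (1.77 without A29) and Pfkfb1 farthest to the left (-2.92 without A29), and 24 of the 35 lie below the median with all 8 hearts.

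The median of the 35 fold changes was -0.24 relative to that of all genes with all 8 hearts. Below the median of all genes lay 24 of them, or 68.6%, where the share of all genes is 50.0% by construction. In TPM as deposited, only Tpi1, Pgk1 and Ldha had no overlap between the groups with all 8 hearts, each with higher values in hearts labelled knockout. Of all genes, 3.71% did so in that direction and 0.634% in the other. This too depends on the scaling. With all 8 hearts, median-of-ratios scaling gave 1 of the 35 apart as higher and 3 as lower, against 600 and 609 of 11874 genes. TPM without the mitochondrially encoded genes gave 2 and 3, against 658 and 283 of 13168 genes.

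Glucose enters the cardiomyocyte through GLUT4, the insulin-responsive transporter encoded by Slc2a4, and through GLUT1, the basal transporter encoded by Slc2a1. Slc2a4 had 76.9, 153, 106 and 59.5 TPM in hearts labelled knockout, against 131, 197, 221 and 197 TPM in wild-type hearts. The 3 hearts other than A29 lay below every wild-type heart, and A29 lay within the wild-type range. Its log2 fold change was -1.23 ± 0.29 (SE) with all 8 hearts (limma adjusted p = 0.142) and -1.60 ± 0.23 without A29 (limma adjusted p = 0.00278). Slc2a1 had 8.67, 4.01, 13.8 and 10.4 TPM in hearts labelled knockout, against 4.09, 5.70, 6.92 and 6.76 TPM in wild-type hearts. It was low in both groups, and the same 3 hearts lay above all others (0.23 ± 0.33 with all 8 hearts, limma adjusted p = 0.36, and 0.41 ± 0.23 without A29, limma adjusted p = 0.0224). In this and the following heart paragraphs, p tests the value before subtraction of the median, which was 0.80 for Slc2a1 without A29.

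Hexokinase 2, the insulin-responsive form encoded by Hk2, and hexokinase 1, the housekeeping form encoded by Hk1, both phosphorylate glucose. Hk2 had 16.3, 37.4, 47.99 and 19.2 TPM in hearts labelled knockout, against 32.6, 71.7, 68.1 and 62.8 TPM in wild-type hearts. A25 and A31 were lowest, A30 and A29 lay within the wild-type range, and wild-type A5 was far below the other wild-type hearts. The log2 fold change was -1.26 ± 0.36 (SE) with all 8 hearts (limma adjusted p = 0.15) and -1.54 ± 0.38 without A29 (limma adjusted p = 0.0367). Hk1 had 44.3, 29.8, 77.4 and 33.1 TPM in hearts labelled knockout, against 29.05, 42.3, 42.5 and 40.6 TPM in wild-type hearts. A30 was highest and the groups overlapped. The share of Hk1 in the TPM of Hk1 and Hk2 together was 73.1, 44.3, 61.7 and 63.2% in hearts labelled knockout and 47.1, 37.1, 38.4 and 39.3% in wild-type hearts.

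Phosphofructokinase is built from the muscle subunit Pfkm, the liver subunit Pfkl and the platelet subunit Pfkp. Pfkm had 157, 265, 194 and 119 TPM in hearts labelled knockout, against 250.04, 321, 338 and 304 TPM in wild-type hearts. The 3 hearts other than A29 were lower than every wild-type heart (-1.03 ± 0.24 with all 8 hearts, limma adjusted p = 0.142; -1.36 ± 0.18 without A29, limma adjusted p = 0.00249). Pfkp had 47.8, 10.2, 71.3 and 51.7 TPM in hearts labelled knockout, against 7.95, 17.3, 13.7 and 9.92 TPM in wild-type hearts. Here the same 3 hearts were above every wild-type heart and A29 was inside the wild-type range; the log2 fold change was 1.32 ± 0.50 with all 8 hearts (limma adjusted p = 0.142) and 1.77 ± 0.26 without A29 (limma adjusted p = 0.000228). Pfkl had 33.5, 30.01, 50.6 and 28.4 TPM in hearts labelled knockout, against 32.5, 47.8, 40.6 and 27.3 TPM in wild-type hearts, with overlap throughout. Pfkm made up 65.8, 86.8, 61.4 and 59.8% of phosphofructokinase TPM in hearts labelled knockout and 86.1, 83.2, 86.2 and 89.1% in wild-type hearts, while Pfkp made up 20.1, 3.35, 22.6 and 25.9% in hearts labelled knockout and 2.74, 4.48, 3.50 and 2.90% in wild-type hearts.

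The bifunctional enzymes of the Pfkfb family make and remove the sugar bisphosphate that activates phosphofructokinase; Pfkfb1 is known as the liver and muscle form and Pfkfb2 as the heart form. Pfkfb1 had 0.546, 10.6, 1.12 and 0.9997 TPM in hearts labelled knockout, against 5.20, 9.68, 14.9 and 12.1 TPM in wild-type hearts. The 3 hearts lay at or under 1.12 TPM, A29 was in the wild-type range, and this was the largest negative value among the 35 (-2.13 ± 0.57 with all 8 hearts, limma adjusted p = 0.142; -2.92 ± 0.31 without A29, limma adjusted p = 0.000262). Pfkfb2 had 8.83, 14.6, 19.3 and 11.999 TPM in hearts labelled knockout, against 13.9, 36.8, 31.03 and 31.8 TPM in wild-type hearts. The groups overlapped through wild-type A5 (-1.22 ± 0.32 with all 8 hearts, limma adjusted p = 0.142; -1.40 ± 0.35 without A29, limma adjusted p = 0.0423). Pfkfb3, the inducible form, stayed between 1.99 and 6.16 TPM in all hearts and was not called with A29 or without it.

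**Figure D2:**
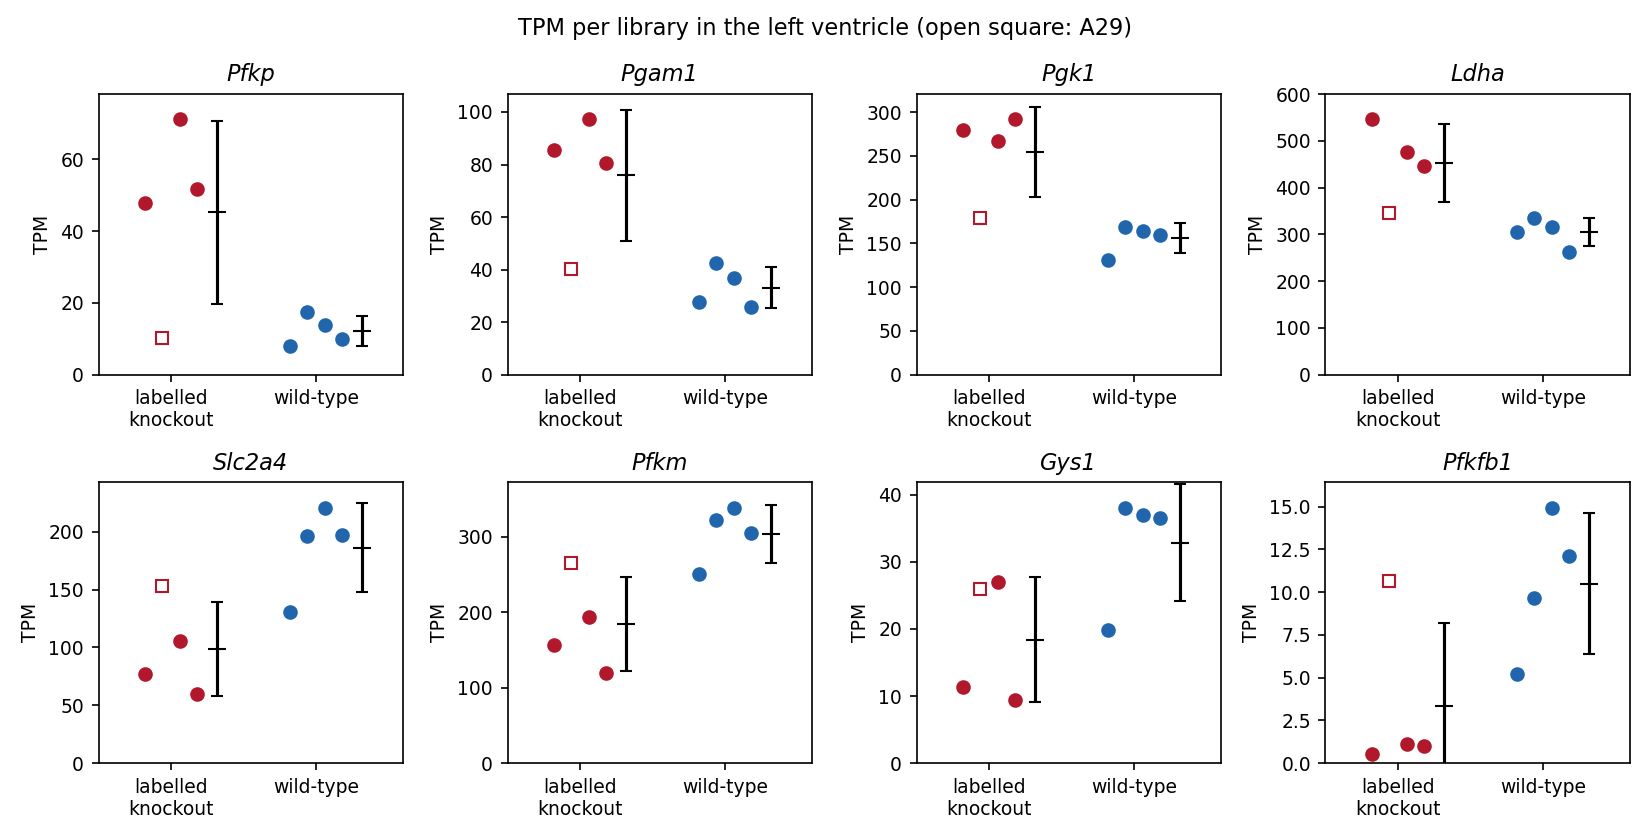
TPM of 8 genes in each left ventricle (vertical axis, from 0), hearts labelled knockout on the left and wild-type hearts on the right, 4 each, with mean and SD beside the points; the open square is A29. Filled points of the hearts labelled knockout lie above all wild-type points for Pfkp, Pgam1, Pgk1 and Ldha and below them for Slc2a4, Pfkm and Pfkfb1, while Gys1 overlaps through wild-type A5 (19.8 TPM) and A30 (26.9 TPM).

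In the middle of the pathway most reactions have a single main enzyme. Aldolase A had 1414, 1224, 1561 and 1129.6 TPM in hearts labelled knockout, against 1154, 1294, 1545 and 1401 TPM in wild-type hearts, and the groups overlapped. Triosephosphate isomerase, Tpi1, had 442, 341, 404 and 378 TPM in hearts labelled knockout, against 284, 304, 319 and 298 TPM in wild-type hearts. All 4 hearts labelled knockout were higher than any wild-type heart, but its fold change was close to that of the median gene (0.12 ± 0.15 with all 8 hearts, limma adjusted p = 0.164; 0.05 ± 0.11 without A29, limma adjusted p = 0.014). The tests of Tpi1 used the values before subtraction, 0.37 with all 8 hearts and 0.44 without A29. After subtraction it stood at -0.03 without A29 under median-of-ratios scaling and -0.02 without A29 and the mitochondrially encoded genes. Gapdh ranged from 1795 to 2673 TPM in hearts labelled knockout and from 1583 to 1983 TPM in wild-type hearts, and was also near the median gene (0.10 ± 0.16 with all 8 hearts, limma adjusted p = 0.206; 0.08 ± 0.12 without A29, limma adjusted p = 0.0125). Before subtraction Gapdh stood at 0.36 with all 8 hearts and at 0.47 without A29. Gpi1, the isomerase that follows hexokinase, ranged from 196 to 356 TPM in hearts labelled knockout and from 186 to 246 TPM in wild-type hearts and was not called.

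Phosphoglycerate kinase 1, Pgk1, makes the first ATP of the pathway. It had 279.8, 179, 267 and 292 TPM in hearts labelled knockout, against 131, 169, 165 and 159.9 TPM in wild-type hearts. All 4 hearts labelled knockout were higher than any wild-type heart, A29 least so (0.43 ± 0.19 with all 8 hearts, limma adjusted p = 0.142; 0.45 ± 0.13 without A29, limma adjusted p = 0.00092).

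Phosphoglycerate mutase has a form found widely, Pgam1, and a muscle form, Pgam2. Pgam1 had 85.4, 40.1, 97.3 and 80.6 TPM in hearts labelled knockout, against 27.6, 42.6, 36.7 and 25.9 TPM in wild-type hearts, and A29 alone among the hearts labelled knockout fell in the wild-type range (0.87 ± 0.29 with all 8 hearts, limma adjusted p = 0.142; 1.01 ± 0.19 without A29, limma adjusted p = 0.000471). Reads of Pgam1 may be shared with its copy Pgam1-ps2, which was listed at up to 58.2 TPM. Pgam2 had 454, 468, 373 and 302 TPM in hearts labelled knockout, against 368, 379, 409 and 401 TPM in wild-type hearts, with A25 and A29 above all wild-type hearts and A31 below them, and was not called. The 2 forms differed in step: Pgam2 made up 84.2, 92.1, 79.3 and 78.9% of their sum in hearts labelled knockout and 93.02, 89.9, 91.8 and 93.9% in wild-type hearts.

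Enolase likewise has a widespread form, Eno1, and a muscle form, Eno3. Eno1 had 153, 81.4, 188 and 127 TPM in hearts labelled knockout, against 69.3, 93.3, 101 and 72.5 TPM in wild-type hearts. A25, A30 and A31 exceeded every wild-type heart and A29 did not (0.40 ± 0.26 with all 8 hearts, limma adjusted p = 0.161; 0.49 ± 0.19 without A29, limma adjusted p = 0.00499). Eno3 had 697, 855, 578 and 499 TPM in hearts labelled knockout, against 700.4, 799.9, 818 and 784 TPM in wild-type hearts. It was lower in the same 3 hearts, with A25 closest to wild-type A5, and highest of all in A29 (-0.52 ± 0.18 with all 8 hearts, limma adjusted p = 0.373; -0.79 ± 0.14 without A29, limma adjusted p = 0.041). Pyruvate kinase, Pkm, had 450.3, 452, 473 and 399.9 TPM in hearts labelled knockout, against 434, 490.1, 505 and 442 TPM in wild-type hearts, and the groups overlapped.

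Lactate dehydrogenase A favours the making of lactate from pyruvate, and the B subunit, typical of heart, is known for the reverse direction. Ldha had 547, 345, 476 and 445 TPM in hearts labelled knockout, against 305, 336, 316 and 263 TPM in wild-type hearts. All 4 hearts labelled knockout were above the wild-type hearts, A29 by the least (0.30 ± 0.18 with all 8 hearts, limma adjusted p = 0.142; 0.29 ± 0.13 without A29, limma adjusted p = 0.00307). Ldhb had 661, 968, 653 and 584 TPM in hearts labelled knockout, against 709.8, 826, 943 and 908 TPM in wild-type hearts. The 3 hearts other than A29 were below every wild-type heart and A29 was above them all (-0.51 ± 0.19 with all 8 hearts, limma adjusted p = 0.391; -0.80 ± 0.13 without A29, limma adjusted p = 0.0302). Their summed TPM ran from 1029 to 1313 in hearts labelled knockout and from 1015 to 1258 in wild-type hearts, so the step as a whole overlapped.

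Monocarboxylate transporters pass lactate and pyruvate across the cell membrane. Slc16a3, which encodes MCT4, the form of lactate-exporting cells, had 4.99, 0.708, 6.84 and 5.65 TPM in hearts labelled knockout, against 0.870, 1.75, 1.72 and 0.782 TPM in wild-type hearts. The 3 hearts were above every wild-type heart and A29 was below them all (0.85 ± 0.44 with all 8 hearts, limma adjusted p = 0.165; 1.21 ± 0.23 without A29, limma adjusted p = 0.000539). Slc16a1, which encodes MCT1, had 53.6, 54.8, 56.3 and 57.7 TPM in hearts labelled knockout, against 39.4, 57.7, 60.7 and 48.01 TPM in wild-type hearts, with overlap.

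Pyruvate enters the mitochondrion through the carrier of Mpc1 and Mpc2. Mpc2 had 209, 326, 203 and 209 TPM in hearts labelled knockout, against 246, 272, 259.96 and 278 TPM in wild-type hearts, lower in the 3 hearts and highest in A29 (-0.44 ± 0.18 with all 8 hearts, limma adjusted p = 0.54; -0.74 ± 0.11 without A29, limma adjusted p = 0.0326). Mpc1 ranged from 397 to 496 TPM in hearts labelled knockout and from 399 to 469 TPM in wild-type hearts and was not called.

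Pyruvate dehydrogenase then turns pyruvate into acetyl-CoA; its kinases, Pdk1 to Pdk4, switch it off and its phosphatase Pdp1 switches it on. Pdk2 had 37.7, 90.4, 95.8 and 28.5 TPM in hearts labelled knockout, against 73.9, 145, 163 and 177 TPM in wild-type hearts. A25 and A31 were lowest, A30 and A29 overlapped with wild-type A5 (-1.50 ± 0.41 with all 8 hearts, limma adjusted p = 0.142; -1.86 ± 0.41 without A29, limma adjusted p = 0.0183). Pdk4, the kinase induced by fasting and fatty acids, had 107, 53.4, 186 and 55.4 TPM in hearts labelled knockout, against 45.4, 71.7, 66.5 and 79.3 TPM in wild-type hearts. A30 and A25 were above all wild-type hearts and the other hearts were not, and the gene was not called with A29 (limma adjusted p = 0.466) or without it (limma adjusted p = 0.16). Pdk3 had 2.55, 0.242, 3.18 and 2.74 TPM in hearts labelled knockout, against 0.389, 0.780, 0.851 and 0.669 TPM in wild-type hearts, low throughout but higher in the same 3 hearts, with A29 below every wild-type heart (0.54 ± 0.36 with all 8 hearts, limma adjusted p = 0.203; 0.81 ± 0.17 without A29, limma adjusted p = 0.000565). Pdk1 had 40.1, 42.4, 46.4 and 41.9 TPM in hearts labelled knockout, against 33.4, 43.8, 49.5 and 49.7 TPM in wild-type hearts, with overlap. The enzyme's own subunits Pdha1 (331 to 451 TPM in hearts labelled knockout and 317 to 444 TPM in wild-type hearts) and Pdhb (338 to 413 TPM in hearts labelled knockout and 289 to 372 TPM in wild-type hearts), and Pdp1 (11.5 to 16.7 TPM in hearts labelled knockout and 10.4 to 16.9 TPM in wild-type hearts), were not called in TPM as deposited with A29 or without it. After median-of-ratios scaling without A29 they were lower, with limma adjusted p of 0.00611 for Pdha1, 0.0479 for Pdhb and 0.0462 for Pdp1.

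Glycogen synthase and phosphorylase of muscle build and break the glucose store. Gys1 had 11.4, 25.9, 26.9 and 9.37 TPM in hearts labelled knockout, against 19.8, 38.1, 36.95 and 36.5 TPM in wild-type hearts. A25 and A31 were lowest, while A30 and A29 lay between wild-type A5 and the other wild-type hearts (-1.15 ± 0.36 with all 8 hearts, limma adjusted p = 0.167; -1.49 ± 0.35 without A29, limma adjusted p = 0.0327). Pygm had 167, 274, 242 and 124 TPM in hearts labelled knockout, against 248, 343, 385 and 359.96 TPM in wild-type hearts. The 3 hearts were below every wild-type heart (-1.03 ± 0.26 with all 8 hearts, limma adjusted p = 0.142; -1.33 ± 0.23 without A29, limma adjusted p = 0.0101).

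Because a ratio of 2 genes within a library hardly depends on the TPM total, 17 ratios were compared on the log2(TPM + 1) scale. Of these, 14 set isozymes or related forms against each other, while Pdha1 over Pdhb and Mpc1 over Mpc2 are partner subunits and Pygm over Gys1 opposing enzymes. With all 8 hearts the smallest p that the exact permutation test can give is 0.0286, and Pdk1 over Pdk2 and Pdha1 over Pdhb reached it, each without overlap, but no ratio passed after adjustment over the 17 (lowest adjusted p = 0.162). The log2 ratio of Pdk1 to Pdk2 was 0.09, -1.08, -1.03 and 0.54 in hearts labelled knockout, against -1.12, -1.70, -1.70 and -1.81 in wild-type hearts, higher in every heart labelled knockout. Without A29, 15 of the 17 ratios did not overlap between the groups, the exceptions being Aldoc over Aldoa and Pygm over Gys1. Each of the 15 had the smallest p that 3 hearts against 4 can give (exact permutation p = 0.0286, adjusted over the 17 ratios 0.0324). A29 was left out after its values had been seen, and several ratios share a gene. Of all single genes tested without A29, 45.3% lay apart as higher and 3.65% as lower, and the share among other gene pairs was not computed. The largest difference was in Pfkm over Pfkp, whose log2 ratio was 1.69, 4.57, 1.43 and 1.19 in hearts labelled knockout, against 4.81, 4.14, 4.53 and 4.81 in wild-type hearts. Each of the 3 hearts was below every wild-type heart, and A29 lay among the wild-type values.

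**Figure D3:**
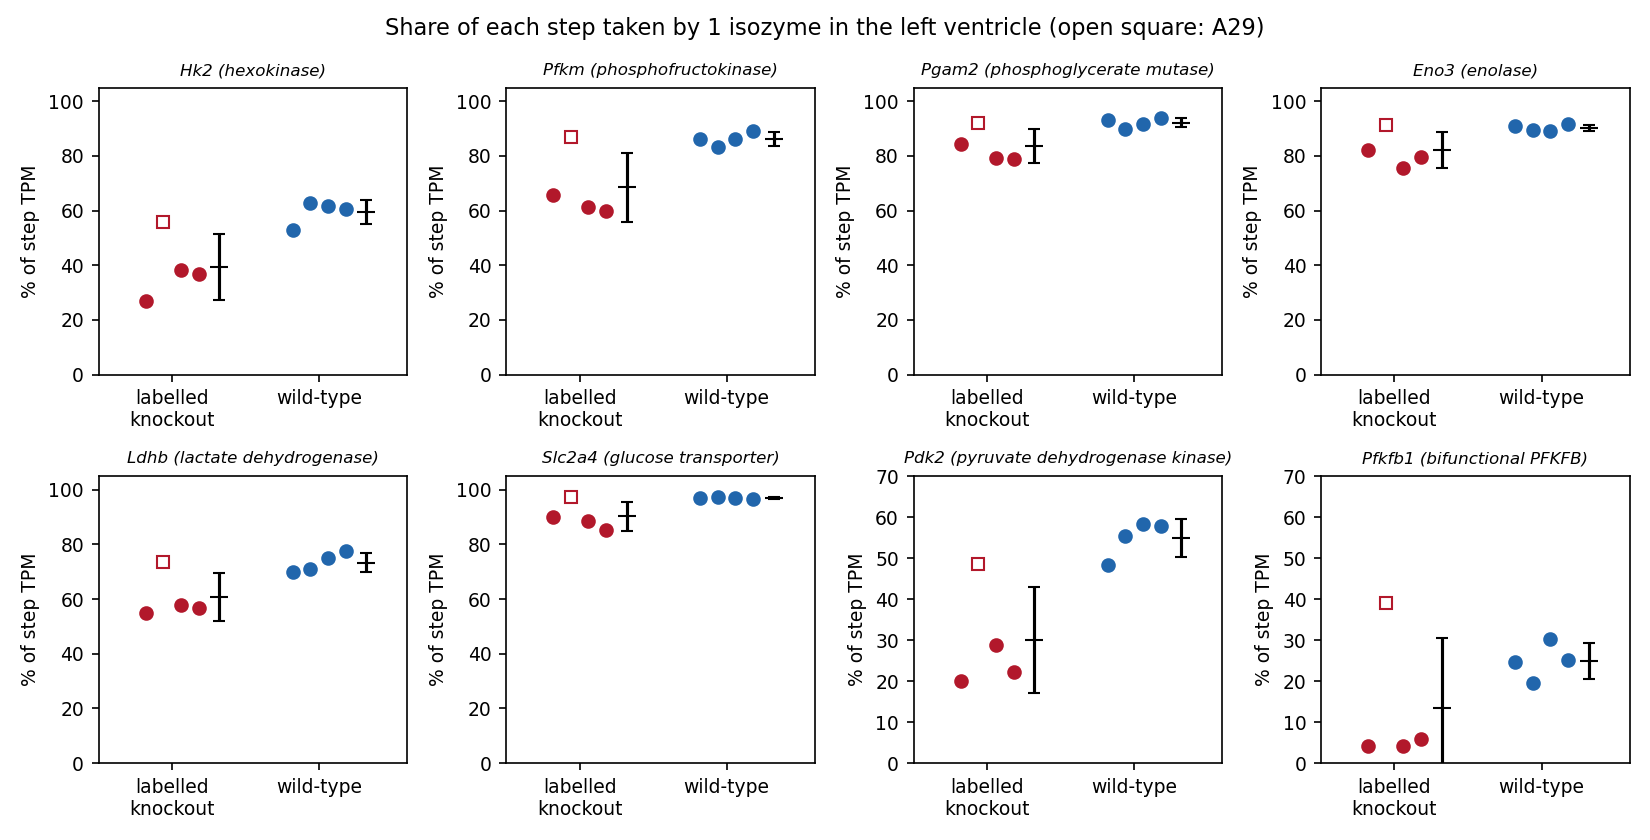
Percentage of the TPM of a step taken by 1 isozyme in each left ventricle (vertical axis), hearts labelled knockout on the left and wild-type hearts on the right, 4 each, with mean and SD beside the points; the open square is A29. The Pfkm share averaged 62.3% in the 3 filled knockout points and 86.1% in wild-type hearts, and Slc2a4, Ldhb, Eno3, Pgam2, Hk2, Pdk2 and Pfkfb1 shares are also lower in those 3 points than in every wild-type heart. Pfkfb1 is a minor form of its step. The main form, Pfkfb2 (not drawn), overlapped, with 69.0, 53.5, 72.6 and 71.1% in hearts labelled knockout and 65.8, 74.1, 62.7 and 65.8% in wild-type hearts.

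The shares put these values on a common scale. Ldhb took 54.7, 73.7, 57.8 and 56.7% of lactate dehydrogenase TPM in hearts labelled knockout and 69.9, 71.1, 74.9 and 77.5% in wild-type hearts. Eno3 took 82.04, 91.3, 75.5 and 79.7% of enolase TPM in hearts labelled knockout and 90.99, 89.6, 88.97 and 91.5% in wild-type hearts. The form most abundant in wild-type hearts was thus still the larger part in every heart for these steps. The same held for phosphofructokinase and phosphoglycerate mutase, whereas Hk1 rather than Hk2 was the larger part in the 3 hearts. Among the kinases, Pdk4 took 57.1, 28.7, 56.2 and 43.1% of the TPM of the 4 Pdk genes in hearts labelled knockout and 29.6, 27.5, 23.8 and 25.8% in wild-type hearts, and was the most abundant Pdk in A25, A30 and A31 while Pdk2 was so in A29 and in all wild-type hearts.

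In 18 of the 36 genes the 3 hearts lay wholly apart from the 4 wild-type hearts, 11 higher, the untested Aldoc among them, and 7 lower, where 45.3% of all tested genes lay apart as higher and 3.65% as lower. In all 18, A29 was nearer to the wild-type mean than to the mean of the other 3 and lay in the range of the other 3 in 0; in 9 it lay inside the wild-type range. These 18 are those in which the other 3 stood apart; over all 36 genes A29 was nearer to the wild-type mean in 29, inside the wild-type range in 22 and in the range of the other 3 in 10. Other markers moved with these results: without A29, cardiomyocyte markers summed to 16626 to 23125 TPM in hearts labelled knockout, against 23095 to 32005 TPM in wild-type hearts, a ratio of means of 0.715, and the 7 markers were above 0 in every heart. The 7 markers did not move alike, which their sum does not show. Myh6 had 1115, 2399, 2933 and 1012 TPM in hearts labelled knockout, against 2170, 4099, 4769 and 4104 TPM in wild-type hearts. Actc1 had 4500, 4723, 6195 and 3293 TPM in hearts labelled knockout, against 3840, 6339, 5416 and 4420 TPM in wild-type hearts. The ratio of means was 0.515 for Pfkm, 0.433 for Slc2a4, 0.531 for Pygm and 0.0848 for Pfkfb1, but 0.763 for Eno3 and 0.747 for Ldhb. Fibroblast markers, 6 of 6 above 0 in every heart, summed to 2099 to 3409 TPM without A29, against 187 to 300.2 TPM in wild-type hearts, a ratio of means of 10.5. Macrophage markers, also 6 of 6 above 0, summed to 334 to 381 TPM without A29, against 56.0 to 88.6 TPM in wild-type hearts, a ratio of 5.30; the ratio was 4.65 for Pfkp, 4.56 for Slc16a3, 4.20 for Pdk3 and 2.65 for Pgam1, but 1.86 for Slc2a1, 1.85 for Eno1, 1.79 for Pgk1, 1.605 for Ldha, 1.39 for Gapdh and 1.36 for Tpi1. The part of these cell types in the results was not tested, and in whole tissue fewer cells of a type and less RNA per cell cannot be told apart.

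Of 70 further genes of glucose and glycogen metabolism, 69 were found and 58 were tested in heart. With all 8 hearts 0 passed in limma. An unadjusted p under 0.05 was reached by 11 higher and 8 lower genes, where the shares of all genes were 20.9% and 3.66%. The 2 of smallest p were Gpd1, glycerol phosphate dehydrogenase, at 37.4, 25.2, 44.2 and 33.5 TPM in hearts labelled knockout, against 15.6, 19.7, 21.4 and 14.03 TPM in wild-type hearts (limma adjusted p = 0.142), and Stbd1, a glycogen-binding protein, at 39.2, 5.99, 26.4 and 29.9 TPM in hearts labelled knockout, against 4.49, 6.25, 5.90 and 3.24 TPM in wild-type hearts (limma adjusted p = 0.142). Gpd1 was higher in all 4 hearts labelled knockout and Stbd1 in all but A29. Without A29, 14 of the 58 were higher and 9 lower, where the shares of all genes were 34.8% and 4.16%. Here too the split depends on the scaling: without A29, median-of-ratios scaling gave 9 higher and 25 lower of 58, and TPM without the mitochondrially encoded genes gave 17 higher and 19 lower of 62, beside the shares of all genes given above. A pair of these genes is shown, picked after their values were seen. Fbp2, the muscle fructose bisphosphatase, had 2.20, 16.8, 4.44 and 3.43 TPM in hearts labelled knockout, against 9.01, 13.3, 15.01 and 15.1 TPM in wild-type hearts, low in the 3 hearts and highest in A29. Hif1a, the oxygen-regulated transcription factor known to drive many glycolytic genes, had 25.3, 11.3, 38.3 and 32.9 TPM in hearts labelled knockout, against 9.22, 13.9, 12.2 and 16.7 TPM in wild-type hearts, high in the same 3 hearts and within the wild-type range in A29. With all 8 hearts neither Fbp2 nor Hif1a passed (limma adjusted p = 0.158 for each). Without A29, 45.3% of all genes lay apart as higher and 3.65% as lower. Whether Hif1a bears on the genes above was not tested.

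Since the core of the hypoxia response element is a known control site of glycolytic genes, the letters ACGTG were counted on both strands of the 250 bases before each start site in RefSeq's promoters of build GRCm38.p6; a CACGTG counts on both. Promoters were given for 34 of the 36 genes, Slc2a4 and Pdp1 being the others. A match was present for 16 of the 34 genes (47.1%), against 18.5% of 27025 genes with a promoter. A gene with several promoters counts when any of them matches. Counted by promoter, a match was in 20 of the 54 promoters of these genes, against 16.6% of all 32851. The median GC content was 60.4% in these 54 promoters and 52.4% in all 32851, and its part was not tested. By direction in heart without A29, matches were found for 6 of the 10 higher genes, for 5 of 10 lower genes with a promoter and for 5 of the 14 others. The letters TNAAGGTCA, the binding sequence of the estrogen-related receptors, were in 0 of the 34 against 1.30% of genes, and the MEF2 site was in Pfkfb1 and Pgam2 alone, against 3.42% of genes. Such matches describe letters and show no binding. The promoters of 4 genes with a match that stood higher in the 3 hearts, and of the muscle isozyme Pgam2, are shown 5′ to 3′, with the ACGTG core or its complement, and in Pgam2 the MEF2 match, in capitals.
Ldha (chr7:46845554-46845803, plus strand): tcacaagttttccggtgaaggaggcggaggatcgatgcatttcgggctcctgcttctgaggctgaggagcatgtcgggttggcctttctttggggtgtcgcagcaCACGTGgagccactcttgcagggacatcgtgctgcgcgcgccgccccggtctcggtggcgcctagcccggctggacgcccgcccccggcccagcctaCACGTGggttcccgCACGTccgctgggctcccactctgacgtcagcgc
Pgk1 (chrX:106186850-106187099, plus strand): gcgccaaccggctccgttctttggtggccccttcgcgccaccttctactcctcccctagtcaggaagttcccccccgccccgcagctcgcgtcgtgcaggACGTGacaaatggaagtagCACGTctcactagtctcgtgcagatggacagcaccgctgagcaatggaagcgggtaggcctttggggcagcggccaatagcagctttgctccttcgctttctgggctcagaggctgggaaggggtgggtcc
Pgam1 (chr19:41911621-41911870, plus strand): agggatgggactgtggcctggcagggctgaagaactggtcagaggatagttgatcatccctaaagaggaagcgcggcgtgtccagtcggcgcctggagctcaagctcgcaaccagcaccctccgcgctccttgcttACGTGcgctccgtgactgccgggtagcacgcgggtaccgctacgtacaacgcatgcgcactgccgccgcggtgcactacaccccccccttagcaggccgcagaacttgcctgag
Slc16a3 (chr11:120948817-120949066, plus strand): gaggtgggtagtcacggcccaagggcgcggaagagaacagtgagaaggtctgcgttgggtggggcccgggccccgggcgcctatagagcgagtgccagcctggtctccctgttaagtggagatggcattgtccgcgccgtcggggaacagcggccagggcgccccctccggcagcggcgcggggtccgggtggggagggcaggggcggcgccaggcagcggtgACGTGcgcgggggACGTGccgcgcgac
Pgam2 (chr11:5803797-5804046, minus strand): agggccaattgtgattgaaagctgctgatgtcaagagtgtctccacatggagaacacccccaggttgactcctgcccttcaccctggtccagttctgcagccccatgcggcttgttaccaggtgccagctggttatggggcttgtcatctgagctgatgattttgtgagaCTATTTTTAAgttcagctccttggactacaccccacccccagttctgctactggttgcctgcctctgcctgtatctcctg
Ldha has 5 matches in this window, more than any other promoter of the 34 genes, in 3 stretches of which the first 2 are palindromes read on both strands. Pgk1 and Slc16a3 have 2 each, Pgam1 has 1, and Pgam2 has none.

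In scWAT the muscle isozymes Pgam2, Eno3, Pygm and Pfkm stood far higher in 2 of the 3 libraries labelled knockout, A24 and A30, and the widespread isozyme Eno1 and the inducible Pfkfb3 stood lower in all 3. None of the 35 tested genes passed an adjusted p of 0.05 in limma, where 0.0146% of 13682 genes passed as higher and 0.00731% as lower. An unadjusted p under 0.05 was reached by 5 that were higher and 3 that were lower, where the shares of all genes were 8.11% and 7.52%. The median log2 fold change was 0.03 over all tested genes, so scWAT fold changes are given as fitted.

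Pgam2 had 89.04, 4.98 and 150.5 TPM in scWAT labelled knockout, against 1.37, 19.8, 3.57, 1.65 and 2.73 TPM in wild-type scWAT. Eno3 had 128, 33.2 and 268 TPM in scWAT labelled knockout, against 12.4, 36.2, 21.9, 10.7 and 16.2 TPM in wild-type scWAT. Pygm had 103, 6.52 and 169 TPM in scWAT labelled knockout, against 2.19, 18.6, 3.11, 1.05 and 1.44 TPM in wild-type scWAT. In all 3 genes A24 and A30 were highest, and A26 lay below wild-type A7, which was the highest of the wild-type libraries. Their log2 fold changes were 3.22 ± 1.06 (SE), 2.50 ± 0.62 and 3.61 ± 1.05, with limma adjusted p of 0.236, 0.216 and 0.221. Pfkm had 72.4, 14.9 and 86.5 TPM in scWAT labelled knockout, against 15.5, 20.6, 22.9, 20.8 and 16.9 TPM in wild-type scWAT, again high in A24 and A30 alone (1.21 ± 0.49, limma adjusted p = 0.29). Slc16a3 had 6.20, 1.97 and 7.30 TPM in scWAT labelled knockout, against 1.13, 1.93, 0.797, 0.468 and 2.26 TPM in wild-type scWAT, with A24 and A30 above all wild-type libraries and A26 within them (1.34 ± 0.40, limma adjusted p = 0.224).

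Skeletal muscle markers, 13 genes such as fast myosins and troponins, moved with these values. They summed to 4397, 327 and 9038 TPM in scWAT labelled knockout and to 31.4, 959, 65.2, 14.9 and 11.8 TPM in wild-type scWAT, and at most 1 of the 13 was at 0 in any library. With the mean of these markers as a covariate, the fold changes were -0.68 for Pgam2, -0.36 for Pygm and -0.13 for Pfkm, but 0.33 for Eno3 and 0.36 for Slc16a3. Without A24 and A30 they were 0.36 for Pgam2, 0.84 for Pygm, 0.87 for Eno3 and 0.42 for Slc16a3, but -0.34 for Pfkm. None of these passed in limma. Without A26, 4 of the 35 (Eno3, Pygm, Pgam2 and Pfkm) passed as higher and 0 as lower, where the shares of all genes were 0.923% and 0.0447%. A26 itself held 521 TPM of B cell markers and 396 TPM of T cell markers, against at most 22.6 and 13.8 TPM in any other scWAT library. It held 809 TPM of fibroblast markers, against 1972 to 3514 TPM in the others. Brown or thermogenic adipocyte markers summed to 464 to 975 TPM in scWAT labelled knockout and to 141 to 576 TPM in wild-type scWAT. Among them, Ucp1 had 8.85, 186 and 70.2 TPM in scWAT labelled knockout and at most 1.16 TPM in wild-type scWAT. Elovl3 was also higher without overlap, while Cidea, Cox8b, Cox7a1 and Otop1 overlapped. The part of these cells was not tested.

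**Figure D4:**
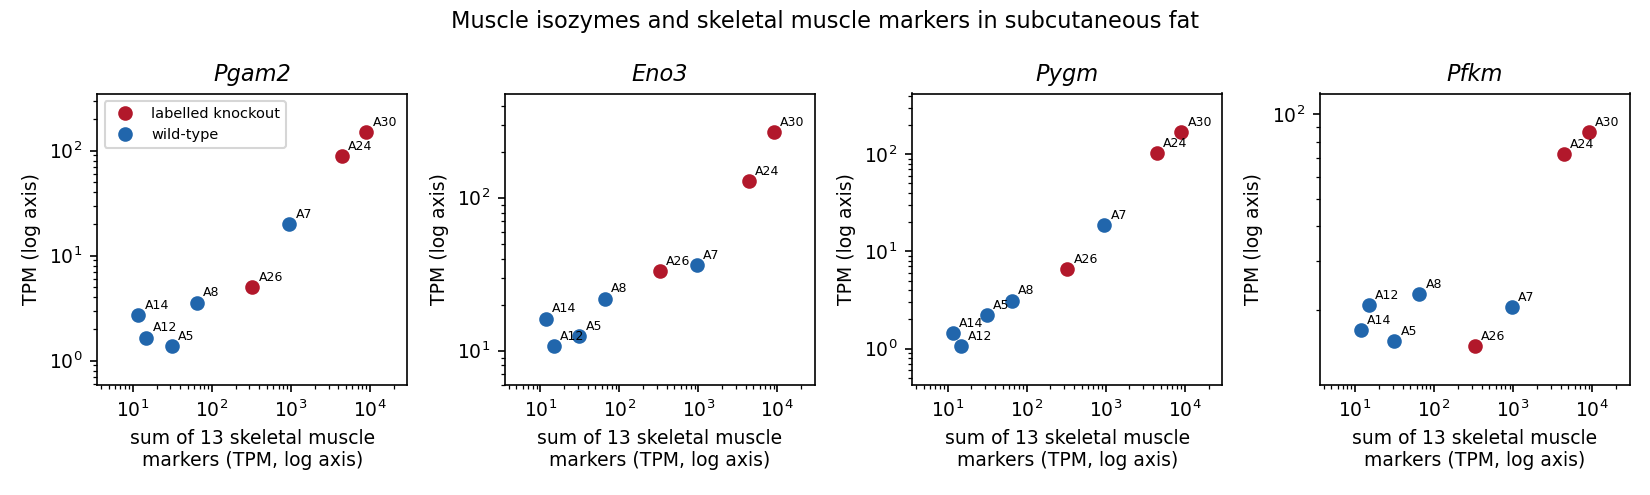
TPM of 4 muscle isozymes (vertical log axes) against the summed TPM of 13 skeletal muscle markers (horizontal log axes) in each scWAT library, 3 labelled knockout and 5 wild-type, named by mouse. A24 and A30 lie at the upper right in every panel, and wild-type A7 and A26 lie between them and the other wild-type libraries for Pgam2, Eno3 and Pygm but not for Pfkm.

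The 3 genes whose groups did not overlap in scWAT, all with lower values in libraries labelled knockout, were Eno1, Ldhb and Pfkfb3, where 5.06% of all genes did so in that direction and 5.23% in the other. Eno1 had 406, 386 and 465 TPM in scWAT labelled knockout, against 735, 738, 490.1, 667 and 677 TPM in wild-type scWAT (-0.65 ± 0.17, limma adjusted p = 0.216). Pfkfb3, which had more TPM in scWAT than any other Pfkfb, had 324, 209 and 384 TPM in scWAT labelled knockout, against 395, 435, 433, 438 and 596 TPM in wild-type scWAT (-0.62 ± 0.22, limma adjusted p = 0.255). A26 was the lowest for both, and wild-type A14 stood above the rest for Pfkfb3. Ldhb, the minor lactate dehydrogenase of fat, had 88.3, 80.9 and 83.4 TPM in scWAT labelled knockout, against 108, 90.4, 91.2, 96.9 and 95.5 TPM in wild-type scWAT (-0.19 ± 0.12, limma adjusted p = 0.426). With A26 as the only library labelled knockout, 1 of the 35, Pfkfb3, passed as lower and 0 as higher, where 3.37% and 7.14% of all genes did so; that fit assumes that A26 varies as the wild-type libraries do. The call was lost when wild-type A7 was also left out, where Pfkfb3 had a limma adjusted p of 0.0843.

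Several glycolytic enzymes spread widely among the wild-type scWAT libraries. Aldoa had 1860.5, 1344 and 2245 TPM in scWAT labelled knockout, against 3174, 2773, 1198, 1294 and 1553 TPM in wild-type scWAT. Tpi1 had 381, 282 and 407 TPM in scWAT labelled knockout, against 1004, 882, 376, 634 and 514 TPM in wild-type scWAT (-0.86 ± 0.32, limma adjusted p = 0.26). Ldha had 772, 575 and 841 TPM in scWAT labelled knockout, against 1366, 1289, 728, 797 and 859.6 TPM in wild-type scWAT. Wild-type A5 and A7 were the highest of the 8 libraries for all 3 genes, and the groups overlapped. Pfkp had 44.1, 47.8 and 49.6 TPM in scWAT labelled knockout, against 93.7, 98.01, 32.4, 41.3 and 53.2 TPM in wild-type scWAT. Pkm had 293, 238 and 272 TPM in scWAT labelled knockout, against 559.7, 434, 220.2, 227 and 263 TPM in wild-type scWAT, with A5 and A7 highest again. Pgam1, at 170.1, 170.4 and 153 TPM in scWAT labelled knockout, against 244, 235, 143, 156 and 173 TPM in wild-type scWAT, was also highest in A5 and A7. Pfkl had 54.8, 62.8 and 75.01 TPM in scWAT labelled knockout, against 90.7, 86.7, 60.5, 59.2 and 87.8 TPM in wild-type scWAT, and overlapped likewise.

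The genes of glucose uptake and of pyruvate entry overlapped between the groups in fat. Slc2a4 had 199, 178 and 163 TPM in scWAT labelled knockout, against 143, 178, 192, 122 and 153 TPM in wild-type scWAT. Hk2 had 43.2, 35.3 and 38.7 TPM in scWAT labelled knockout, against 48.6, 47.5, 54.8, 34.5 and 30.9 TPM in wild-type scWAT, and Hk1 stayed between 17.2 and 21.2 TPM in all 8 libraries. Slc2a4 was highest in A24 and Hk2 in wild-type A8, and both overlapped between the groups. Pdk4 had 68.8, 100.4 and 202 TPM in scWAT labelled knockout, against 50.4, 62.7, 62.97, 109 and 153 TPM in wild-type scWAT, highest in A30. Pdk2 had 101, 78.5 and 122 TPM in scWAT labelled knockout, against 49.8, 62.1, 113, 77.2 and 98.9 TPM in wild-type scWAT. Pdk1 had 29.8, 36.6 and 21.7 TPM in scWAT labelled knockout, against 22.5, 23.2, 29.7, 21.3 and 28.8 TPM in wild-type scWAT, highest in A26. Slc16a1 had 13.4, 18.8 and 27.9 TPM in scWAT labelled knockout, against 16.2, 17.5, 11.2, 16.4 and 21.1 TPM in wild-type scWAT, highest in A30. Pfkfb1 had 51.98, 58.5 and 58.999 TPM in scWAT labelled knockout, against 59.6, 51.4, 74.7, 37.7 and 42.4 TPM in wild-type scWAT, and the groups overlapped. The other members, Gpi1, Gapdh, Pgk1, Slc2a1, Pdha1, Pdhb, Pdk3, Pdp1, Pfkfb2, Mpc1, Mpc2 and Gys1, had adjusted p of at least 0.349 in limma, and Aldoc, at 0.718 TPM or less, was not tested.

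Of the 17 ratios in scWAT, 5 had p under 0.05 in the exact permutation test, which can give no p below 0.0179, and none passed after adjustment over the 17 (lowest adjusted p = 0.121). The log2 ratio of Eno3 to Eno1 was -1.66, -3.50 and -0.79 in libraries labelled knockout, against -5.78, -4.31, -4.43, -5.84 and -5.30 in wild-type libraries, a difference of 3.15 with no overlap. That of Pfkfb3 to Pfkfb2 was 4.51, 4.46 and 4.93 in libraries labelled knockout, against 5.10, 5.25, 5.09, 5.45 and 5.89 in wild-type libraries, a difference of -0.72 with no overlap. The other 3, Pgam2 over Pgam1, Slc16a3 over Slc16a1 and Pygm over Gys1, overlapped between the groups. Eno3 took 23.98, 7.91 and 36.6% of enolase TPM in scWAT labelled knockout and 1.66, 4.68, 4.27, 1.58 and 2.34% in wild-type scWAT.

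Of the 62 further genes tested in scWAT, 0 passed in limma. An unadjusted p under 0.05 was reached by 5 higher and 3 lower genes (8.06% and 4.84%), against 8.11% and 7.52% of all genes. The 2 of smallest p were Ppp1r3c, a glycogen-targeting subunit of protein phosphatase, and G6pdx, the entry enzyme of the pentose phosphate pathway. Ppp1r3c had 62.97, 32.8 and 37.2 TPM in scWAT labelled knockout, against 23.9, 22.5, 26.8, 17.4 and 13.7 TPM in wild-type scWAT, higher in all 3 libraries labelled knockout (1.03 ± 0.27, limma adjusted p = 0.216). G6pdx had 144, 111 and 207 TPM in scWAT labelled knockout, against 292, 249, 237, 237 and 217 TPM in wild-type scWAT, lower in all 3 (-0.71 ± 0.20, limma adjusted p = 0.219).

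Whether the genotype difference was itself different between heart and scWAT was tested with an interaction term over all 16 libraries. None of the 35 passed in limma, where 0.00867% of 11536 genes passed as higher in heart and 0.052% as lower; an unadjusted p under 0.05 was reached by 7 that were higher and 9 that were lower, against 17.0% and 3.42% of all genes. Without A29, 9 were higher, against 22.4% of 11624 genes, and 7 were lower, against 2.27%; without A26, 0 were higher and 4 were lower, against 0.0435% and 0.774% of 11502 genes. The lower ones without A29 were Eno3, Gys1, Pdk2, Pfkfb1, Pfkm, Pygm and Slc2a4, and without A26 they were Eno3, Pfkm, Pgam2 and Pygm. With all libraries, Eno3, Pfkm, Pgam2 and Pygm had fitted log2 fold changes of 2.50, 1.21, 3.22 and 3.61 in scWAT. In heart, before subtraction of the median, these were -0.26, -0.77, 0.02 and -0.78. The scWAT values were high in A24 and A30, which held the most skeletal muscle marker TPM of the fat. The part of muscle RNA in the interaction was not tested.

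Wild-type hearts and wild-type scWAT differed widely in the isozymes they carried. The choice of scaling matters for this comparison, since mitochondrially encoded transcripts took 51.9 to 60.6% of the TPM of wild-type hearts: of the 35 tested genes 14 were higher and 11 lower in heart in TPM, where 8.12% and 78.5% of 13093 genes were so, 25 higher and 6 lower after median-of-ratios scaling (33.1% and 34.2% of all genes), and 22 higher and 7 lower without the mitochondrially encoded genes (20% and 48.1%). Under all 3 scalings, 14 were higher in heart, namely Hk1, Pfkm, Pgk1, Pgam2, Eno3, Ldhb, Pdha1, Pdhb, Pdk1, Pdk2, Pdp1, Pfkfb2, Slc16a1 and Pygm, and 6 were lower, namely Pfkp, Pgam1, Eno1, Pdk3, Pfkfb1 and Pfkfb3. Of the 64 further genes, 12 were higher and 42 lower in TPM, 26 higher and 26 lower after median-of-ratios scaling, and 22 higher and 30 lower without the mitochondrially encoded genes.

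**Figure D5:**
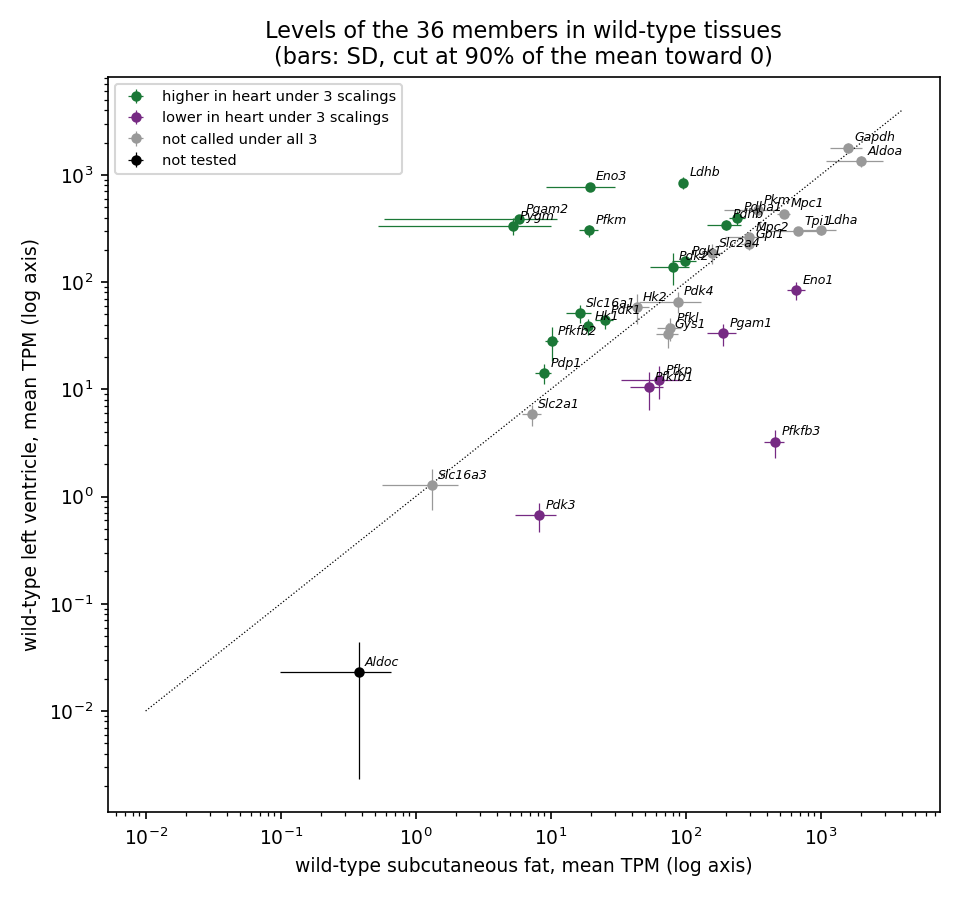
Mean TPM of the 36 genes in wild-type left ventricle (vertical log axis, n = 4) against wild-type scWAT (horizontal log axis, n = 5), with SD; the dotted line marks equal TPM, and colours mark the 14 genes higher and the 6 lower in heart under 3 scalings. Pgam2, Pygm and Eno3 lie farthest above the line and Pfkfb3 farthest below it among tested genes.

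The median log2 difference of all tested genes, wild-type heart over wild-type scWAT, was -1.27 in TPM, and single differences are given after subtracting it. Tests use the values before subtraction, which were 6.38 for Pgam2, 5.37 for Eno3, 6.30 for Pygm and -6.77 for Pfkfb3. Muscle isozymes and their counterparts were among the genes that lay far apart. Pgam2 averaged 389 ± 19.4 TPM in wild-type hearts and 5.82 ± 7.87 TPM in wild-type scWAT (SD, n = 4 hearts and 5 scWAT libraries here and below), a log2 difference of 7.65 ± 0.50 (SE, limma adjusted p = 1.3e-07). Pgam1 averaged 33.2 ± 7.84 TPM in wild-type hearts and 190.2 ± 46.2 TPM in wild-type scWAT. Eno3 averaged 776 ± 51.9 TPM in wild-type hearts and 19.5 ± 10.3 TPM in wild-type scWAT, a log2 difference of 6.64 ± 0.28 (limma adjusted p = 3.9e-09). Eno1 averaged 84.1 ± 15.6 TPM in wild-type hearts and 661 ± 101 TPM in wild-type scWAT. On average Pgam2 held 92.2% and Eno3 90.3% of its step in wild-type hearts, while Pgam1 held 97.3% and Eno1 97.1% of it in wild-type scWAT. Pfkm averaged 304 ± 38.3 TPM in wild-type hearts and 19.3 ± 3.03 TPM in wild-type scWAT. Pfkp averaged 12.2 ± 4.16 TPM in wild-type hearts and 63.7 ± 30.3 TPM in wild-type scWAT. Ldhb averaged 847 ± 104 TPM in wild-type hearts and 96.3 ± 6.85 TPM in wild-type scWAT, and was higher in heart. Ldha averaged 305 ± 30.7 TPM in wild-type hearts and 1008 ± 296 TPM in wild-type scWAT, lower in heart in TPM but not called after median-of-ratios scaling. Pygm averaged 334 ± 59.7 TPM in wild-type hearts and 5.29 ± 7.50 TPM in wild-type scWAT, a log2 difference of 7.57 ± 0.52 (limma adjusted p = 2.1e-07).

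The regulators of phosphofructokinase and of pyruvate dehydrogenase also parted by tissue. Pfkfb3 averaged 3.25 ± 0.958 TPM in wild-type hearts and 459 ± 78.5 TPM in wild-type scWAT, a log2 difference of -5.51 ± 0.19 (SE, limma adjusted p = 1.4e-11). Pfkfb1 averaged 10.5 ± 4.13 TPM in wild-type hearts and 53.2 ± 14.7 TPM in wild-type scWAT. Pfkfb2 was the main form in heart at 28.4 ± 9.99 TPM, against 10.2 ± 1.13 TPM in scWAT. Pdk2 averaged 139.6 ± 45.7 TPM in wild-type hearts and 80.3 ± 26.03 TPM in wild-type scWAT. Pdk3 averaged 0.672 ± 0.203 TPM in wild-type hearts and 8.23 ± 2.80 TPM in wild-type scWAT. Slc16a1 averaged 51.5 ± 9.70 TPM in wild-type hearts and 16.5 ± 3.56 TPM in wild-type scWAT. Slc2a4, at 186 ± 38.8 TPM in wild-type hearts and 157 ± 27.5 TPM in wild-type scWAT, was not called in TPM but was higher in heart by the other 2 scalings, as were Hk2, Gapdh and Pkm. Gapdh and Aldoa were the most abundant of the 36 genes in wild-type hearts, at 1793 ± 185 and 1348 ± 165 TPM; their ranges over the 4 wild-type hearts do not overlap, and the next gene was Ldhb.

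HuR is known to bind AU-rich stretches of 3′ UTRs, so the pentamer ATTTA and the nonamer TTATTTATT were counted in the longest 3′ UTR of each gene in GENCODE M21. The pentamer was in 21 of the 36 genes (58.3%), against 65.0% of 20966 genes, and the nonamer in 3 (8.33%), against 7.61%. The shares are close to those of all genes. The 3 nonamers are shown in capitals, and a match shows no binding. HuR is meant to be lacking in adipocytes only, so these sites are not set against the heart values. In scWAT the limma adjusted p was 0.786 for Hk2, 0.29 for Pfkm and 0.255 for Pfkfb3.
Hk2 (bases 1391 to 1399 of a 3' UTR of 2285 bases, chromosome 6): tttatacgagTTATTTATTccagactgtt
Pfkfb3 (bases 2434 to 2442 of a 3' UTR of 3063 bases, chromosome 2): gatgtgctatTTATTTATTtaatatgtat
Pfkm (bases 290 to 298 of a 3' UTR of 392 bases, chromosome 15): aaaataagctTTATTTATTtctttgtgat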

How the data were processed

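Total RNA of flash-frozen tissue went into Illumina TruSeq libraries, per the labels' protocols. The authors deposited 1 table of TPM per gene symbol for each library, per the file headers; every table sums to 1000000 TPM, so depth is unknown and counting intervals cannot be given. Which aligner, quantifier, annotation and build were used is not given in the sources used here. Genes averaging 1 TPM or more over a fit's libraries were tested on log2(TPM + 1), which understates the change of low genes, with limma 3.58.1 in R 4.3.3 (lmFit, eBayes with trend; 2-sided, Benjamini-Hochberg over all genes tested, threshold 0.05). Each tissue was fitted alone. Gene ratios were compared with exact 2-sided permutation tests written in Python 3.11.15, with Benjamini-Hochberg adjustment over the ratios of a tissue in scipy 1.17.1. The fits were tested on simulated data.

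All 36 genes are accounted for; values per library are given for genes that passed, that did not overlap or that are isozymes averaging at least 20 TPM in a group. The genes, lists and tests were chosen with earlier results of these data known. Alternatives were other pseudocounts, filters and scalings, array weights, covariates, the mouse as a block and each library left out. The 4 wild-type mice and 1 mouse labelled knockout that gave both tissues pair libraries by mouse number.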

Additional observations from a re-analysis of the deposited data

Results flagged for a closer look

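Among 104 sets of values, each of 1 gene in 1 group of 4 or 5 libraries, 9 held a library whose gap to its nearest neighbour was a large part of the group's whole range on the log2 scale; chance alone marks about 1 set in 20. In 4 of them the library was A29 among the hearts labelled knockout: Pdhb (413 TPM), Pfkfb1 (10.6 TPM) and Mpc2 (326 TPM) stood above the other 3 hearts, and Pdk3 (0.242 TPM) stood below them. In 3 of them it was A5 among the wild-type hearts, which stood below the others for Hk1 (29.05 TPM), Hk2 (32.6 TPM) and Gys1 (19.8 TPM). In wild-type scWAT, Eno1 was low in A8 (490.1 TPM) and Pfkfb3 was high in A14 (596 TPM). The cause was not tested for any of the 9.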

How the results depend on the processing

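Fold changes here are on the log2 scale, relative to the median gene for heart and as fitted otherwise, and counts are of genes past an adjusted p of 0.05 in limma. For heart, with 6 of all genes higher, 0 lower and 0 of the 35 in either direction, array weights gave 5160 higher and 2725 lower, with 11 and 12 of the 35, among them Pdha1 as lower and Gpi1 as higher (0.083). Chosen after the data were seen, leaving out A29 with median-of-ratios scaling gave 2340 and 2499, with 5 and 16 of the 35, Tpi1 at -0.035 and Pfkfb3 at 0.0044; leaving out A29 and the mitochondrially encoded genes gave 3803 and 1179, with 8 and 14 of the 35, and Tpi1 at -0.016. A minimum of 5 TPM gave 2 higher. No minimum gave 2 lower and turned Mpc1 (0.011), Gpi1 (0.19), Pdhb (0.024), Slc16a1 (0.084), Pfkfb3 (0.11) and Hk1 (0.12), and a pseudocount of 5 turned Gpi1 (0.077) and Hk1 (0.0015). Leaving out each library in turn gave 3 to 4203 of all genes higher and 0 to 502 lower, 0 to 10 and 0 to 11 of the 35, and 0 to 15 gene ratios past the threshold, each upper end being without A29. Gpi1 then ran between -0.058 and 0.053, Hk1 between -0.26 and 0.051 and Pdk4 between -0.066 and 0.42.

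For scWAT, with 2 of all genes higher, 1 lower and 0 of the 35 called, the number higher was 5 with no minimum, 4 with median-of-ratios scaling, which put Pdp1 at -0.0064 and Hk1 at -0.0011, and 1 with a minimum of 5 TPM; the number lower was 0 with that minimum, with a pseudocount of 5 and with the name style of the deposited tables as a covariate. Array weights gave 66 higher and 14 lower, with 2 of the 35 higher. The skeletal muscle markers as a covariate gave 1 higher and 0 lower and turned Pygm (-0.36), Gys1 (-0.24), Pgam2 (-0.68), Pfkfb2 (-0.23), Pdp1 (-0.19), Pfkm (-0.13) and Hk1 (-0.039). Within 1 name style the counts were 0 and 0, with Aldoa at 0.095, Gpi1 at 0.0042, Pdhb at 0.063, Pfkfb2 at -0.051, Pfkl at 0.019 and Pdp1 at -0.094. Also chosen after the data were seen, leaving out A24 and A30 gave 969 higher and 457 lower, with 1 of the 35 lower and Gys1 at -0.15, Pfkfb2 at -0.23, Pdp1 at -0.26 and Pfkm at -0.34; leaving out wild-type A7 as well gave 758 and 190, with these 4 at -0.12, -0.21, -0.28 and -0.32 and Pdk2 at -0.047, and Pfkfb3, the gene called without A24 and A30, was no longer called (adjusted p = 0.0843). Leaving out each library gave 2 to 124 of all genes higher, 0 to 34 lower and 0 to 4 of the 35 higher. The ranges were -0.22 to 0.15 for Aldoa, -0.0044 to 0.068 for Hk1, -0.16 to 0.076 for Pdhb, -0.23 to 0.033 for Pdk3, -0.10 to 0.17 for Pdp1, -0.0196 to 0.27 for Pfkfb2 and -0.022 to 0.48 for Slc16a1.

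Between wild-type tissues, with 1063 of all genes higher in heart and 10279 lower, median-of-ratios scaling gave 4273 and 4417, with 25 and 6 of the 35, and turned Mpc1 (1.17), Tpi1 (0.37), Aldoa (1.00), Pdk4 (1.13), Gpi1 (1.07), Gys1 (0.26), Slc2a1 (0.99), Pfkl (0.39) and Mpc2 (1.37). Without mitochondrially encoded genes there were 2725 and 6547, with 22 and 7 of the 35, and Mpc1 (0.72), Aldoa (0.56), Pdk4 (0.69), Gpi1 (0.62), Slc2a1 (0.63) and Mpc2 (0.92) turned. Slc16a3 stood at -0.0042 with a pseudocount of 5, at -0.14 with the mouse as a replicate block, which left the counts at 14 and 11 of the 35, and between -0.14 and 0.15 with each library left out, where Mpc2 ran from -0.33 to 0.063. The interaction gave 0 calls among the 35 with the block, 4 and 13 of all genes without mitochondrially encoded genes, and, with each library left out, 1 to 2599 higher and 4 to 264 lower of all genes and 0 to 9 and 0 to 7 of the 35. The cause was not tested where values changed. TPM keep no depth, so the counting error of low genes is unknown.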
